A study of Homo sapiens with 9 samples.

Results

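A set of 8 long noncoding RNA (lncRNA) genes that are widely studied for nuclear functions or for roles in cancer, MALAT1, NEAT1, PVT1, NORAD, CYTOR, MIR17HG, TUG1 and OIP5-AS1, was followed through a TIF-Seq2 experiment in K562 cells. The members were chosen by name and counted by position. A read pair was assigned to a gene when its 5′ end and its 3′ end both lay on the gene's strand within 1 kb of the gene's body in Gencode v44 (hg38). These are 8 of 22384 genes that held at least 1 read pair, and 5735 of those 22384 genes are annotated as lncRNA. TUG1 is annotated as protein coding in this release and the other members are annotated as lncRNA.

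K562 is a human erythroleukemia line that carries the BCR-ABL1 fusion kinase, the target of imatinib. The series compared K562 cells kept for 24 h in 1 µM imatinib with K562 cells kept in DMSO, the solvent, for the same time, with 2 TIF-Seq2 libraries per condition (described as biological replicates, all of 1 cell line). TIF-Seq2 makes cDNA from capped, polyadenylated RNA and joins the cDNA ends into a circle, so that each read pair reports the start and the poly(A) site of the same RNA molecule. The libraries held from 2263121 to 5135829 read pairs after removal of PCR duplicates, of which 97.5% to 98.5% lay in a gene, and each read pair was counted as 1 molecule with no division by length. K562 identity was checked on 11 erythroid markers, which were all detected, and 7 of them were called higher after imatinib, among them HBZ. Of all 12135 tested genes, 8.69% were called higher and 6.15% lower (edgeR, adjusted p under 0.05). Of 17 markers of T cells, B cells, monocytes, fibroblasts and epithelium, 6 held no read pair (CD3E, LCK, MS4A1, PAX5, CD14 and DCN) and 6 were read enough to be tested. CD3D, the only one of them called, fell by 3.88 on the log2 scale.

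Several of these RNAs are known for a particular structure, which paired ends can show directly. MALAT1 is retained in nuclear speckles, the storage sites of splicing factors, and its mature 3′ end is cut by RNase P and carries no poly(A) tail. NEAT1 exists as a short polyadenylated form and a long form with an RNase P-cut end, and the long form is the scaffold of paraspeckles. PVT1 lies downstream of the MYC oncogene and is transcribed from several promoters. NORAD binds the Pumilio proteins, repressors of mRNA, through many copies of a short motif. MIR17HG is the primary transcript of an oncogenic cluster of 6 microRNAs, which the nuclease Drosha cuts out of it. CYTOR and OIP5-AS1 are spliced lncRNAs, and TUG1 RNA is found in nucleus and cytoplasm. The oligo(dT)-primed library captures none of the unadenylated RNase P ends as such.

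The 3′ ends carry much of what follows, so the genomic sequence around several of the main ones is shown first, read from hg38. Each line gives 40 bases up to and including the end position, then the 10 bases downstream in capitals. A poly(A) signal hexamer, AATAAA or ATTAAA, whose first base lies 10 to 35 bases before the end is also in capitals. A run of A downstream matters because oligo(dT) can prime on it inside an RNA (internal priming). A read pair is called A-rich where at least 7 of the 10 genomic bases after its 3′ end are A.
MALAT1 65499661 (chr11:65499622-65499671, +): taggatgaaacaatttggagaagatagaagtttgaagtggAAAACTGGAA
MALAT1 65499691 (chr11:65499652-65499701, +): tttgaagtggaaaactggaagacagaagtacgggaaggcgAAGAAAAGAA
NEAT1 65426016 (chr11:65425977-65426026, +): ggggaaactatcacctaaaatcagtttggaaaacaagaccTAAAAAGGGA
NEAT1 65426525 (chr11:65426486-65426535, +): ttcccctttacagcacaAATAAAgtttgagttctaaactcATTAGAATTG
NORAD 36045626 (chr20:36045616-36045665, −): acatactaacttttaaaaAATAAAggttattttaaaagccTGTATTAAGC
CYTOR 87521509 (chr2:87521470-87521519, +): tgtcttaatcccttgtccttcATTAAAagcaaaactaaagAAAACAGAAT
MIR17HG 91354584 (chr13:91354545-91354594, +): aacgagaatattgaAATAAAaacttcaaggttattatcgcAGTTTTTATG
TUG1 30978843 (chr22:30978804-30978853, +): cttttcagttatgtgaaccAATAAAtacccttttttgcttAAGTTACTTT
OIP5-AS1 41299086 (chr15:41299047-41299096, +): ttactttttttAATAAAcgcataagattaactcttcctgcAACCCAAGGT
OIP5-AS1 41298308 (chr15:41298269-41298318, +): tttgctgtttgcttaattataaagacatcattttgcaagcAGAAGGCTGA
Over the whole data set, 67.1% of 30461 poly(A) site clusters (PAS clusters, built without the A-rich pairs) had such a hexamer, against 26.7% of 10717 A-rich 3′ positions with at least 10 read pairs. Among the ends printed here, those of NORAD, CYTOR, MIR17HG and TUG1, 1 of the NEAT1 ends and 1 of the OIP5-AS1 ends have the hexamer. The MIR17HG end printed is the second most used one of that gene, and the most used one has no hexamer. The 2 MALAT1 ends do not, and a window without these letters says nothing more than that.

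The question of the comparison was whether a day of kinase inhibition changed the amount of these RNAs. At the level of the whole gene none of the 8 members passed an adjusted p of 0.05 (edgeR quasi-likelihood test, Benjamini-Hochberg over 12135 genes), where 14.8% of all tested genes did and 25.8% of 1513 tested lncRNA genes did. At an unadjusted p under 0.05 there were 2 members, NEAT1 and MIR17HG, against 31.2% of all genes. DESeq2 called 1 member, NEAT1, and 10.7% of 13270 genes. A replicate block in edgeR gave NEAT1 as well, with 9.46% of all genes. Without the low-count filter edgeR called 2 members, NEAT1 and MIR17HG, and 12.2% of 22384 genes. The median log2 fold change of the members was 0.14, that of all tested genes 0.03 and that of tested lncRNA genes 0.57. In 3 members the imatinib libraries did not overlap the DMSO libraries, while 60.0% of all tested genes had that separation. Fewer cells making an RNA and less RNA per cell cannot be told apart in these bulk libraries.

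**Figure D1:**
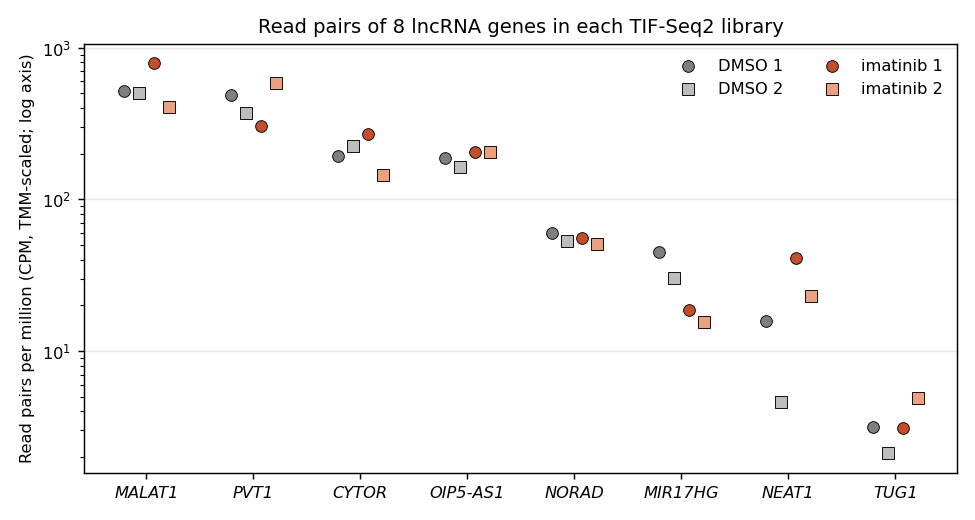
Level (CPM, counts per 1000000 read pairs with TMM scaling, log axis) of the 8 genes in each of the 4 libraries, ordered by the mean in DMSO; grey points are DMSO and orange points imatinib libraries, circles replicate 1 and squares replicate 2. NEAT1 sits at 4.62 and 15.9 CPM in DMSO and at 23.1 and 41.1 CPM after imatinib, and MIR17HG at 30.2 and 44.8 CPM against 15.6 and 18.8 CPM, while the points of the most read genes overlap.

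NEAT1 had the largest difference. DMSO replicate 1 held 55 read pairs and DMSO replicate 2 held 24, while imatinib replicate 1 held 186 and imatinib replicate 2 held 52. That is 15.9 and 4.62 CPM in DMSO and 41.1 and 23.1 CPM after imatinib, so both imatinib libraries lay above both DMSO libraries. The log2 fold change was 1.71 ± 0.54 (SE) with an adjusted p of 0.0637 in edgeR and 1.62 with an adjusted p of 0.0474 in DESeq2. The value depended on DMSO replicate 2, the deepest library. Without it the log2 fold change was 1.01 (adjusted p = 0.313, edgeR), and without DMSO replicate 1 it was 2.78 (adjusted p = 0.000383). Across the 12 alternatives the edgeR or DESeq2 adjusted p ran from 1.43e-07 to 0.313.

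MIR17HG went the other way. Its libraries held 155 and 157 read pairs in DMSO and 85 and 35 after imatinib. In CPM these were 44.8 and 30.2 against 18.8 and 15.6, without overlap. The log2 fold change was -1.11 ± 0.33 (SE) with an adjusted p of 0.0546 in edgeR, and in DESeq2 it was -1.17 with an adjusted p of 0.0626. It stayed negative in all 12 alternatives, from -1.39 to -0.83, and 5 of them had an adjusted p under 0.05, from 0.00464 to 0.36 over all 12.

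The most read members did not separate by condition. MALAT1 lay at 522 and 504 CPM in DMSO and at 788 and 408 CPM after imatinib. The imatinib libraries thus stood on either side of the DMSO libraries, and the log2 fold change was 0.22 ± 0.32 (SE). PVT1 lay at 486 and 371 CPM in DMSO and at 303 and 587 CPM after imatinib, again on either side. CYTOR lay at 194 and 225 CPM in DMSO and at 272 and 145 CPM after imatinib. In these 3 genes the 2 imatinib libraries differed from each other by more than the condition means did. OIP5-AS1 lay at 187 and 163 CPM in DMSO and at 205 and 204 CPM after imatinib, without overlap but with a log2 fold change of only 0.23 ± 0.25 (SE). NORAD lay between 51.1 and 60.4 CPM in all libraries, with a log2 fold change of -0.09 ± 0.27 (SE). TUG1 had 47 read pairs in all, 11, 11, 14 and 11, and its log2 fold change of 0.56 ± 0.51 (SE) is accordingly imprecise. The adjusted p-values of these 6 genes ran from 0.488 for TUG1 to 0.995 for CYTOR (edgeR). The sign of the difference turned in at least 1 alternative for MALAT1, PVT1 and CYTOR.

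Levels of CYTOR and OIP5-AS1 have limits set by the annotation. Every CYTOR read pair also met the counting rule for NCAL1, a lncRNA gene on the same strand (chr2:87455476-87767359), and every OIP5-AS1 read pair also met it for ENSG00000285920 (chr15:41284007-41380996, same strand), so these names cannot be separated by position. CYTOR also has a near copy, MIR4435-2HG. The 50 nt at the CYTOR starts 87455479 and 87455497 occur at 2 places in hg38, those at 87455429 and at the end 87521509 at 1 place. The deposited pairs were uniquely mapped, so the counts of these starts are uncertain. MIR4435-2HG had 586 and 1222 read pairs in DMSO and 1206 and 321 after imatinib, close to the CYTOR counts of 673, 1168, 1228 and 327.

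The paired ends next gave the shape of each RNA. Here a site is the most read position with its neighbours within 10 bp, and a share is the share of the gene's read pairs. A start means the 5′ end of a read pair, and whether each was a capped start was not tested. All 8 members had at least 1 end site with 10% or more of their pairs, but few pairs ran from the first kilobase of the annotated body to its last. Such full-span pairs numbered 10 of 854 in NORAD and 8 of 2880 in OIP5-AS1, and there were 0 in the other 6 genes. The counts of 0 allow a share of up to 0.946% in NEAT1 and up to 0.0476% in PVT1 (3 read pairs, counting error only). These are limits for read pairs and not for full-length RNA. Unadenylated ends are not captured as such, and the annotated body of PVT1 joins 190 transcripts. The bodies of CYTOR, MIR17HG and OIP5-AS1 join 39, 16 and 72 transcripts. Of their pairs, 95.9%, 97.0% and 98.4% ended within 200 bp of the end of an annotated transcript.

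**Figure D2:**
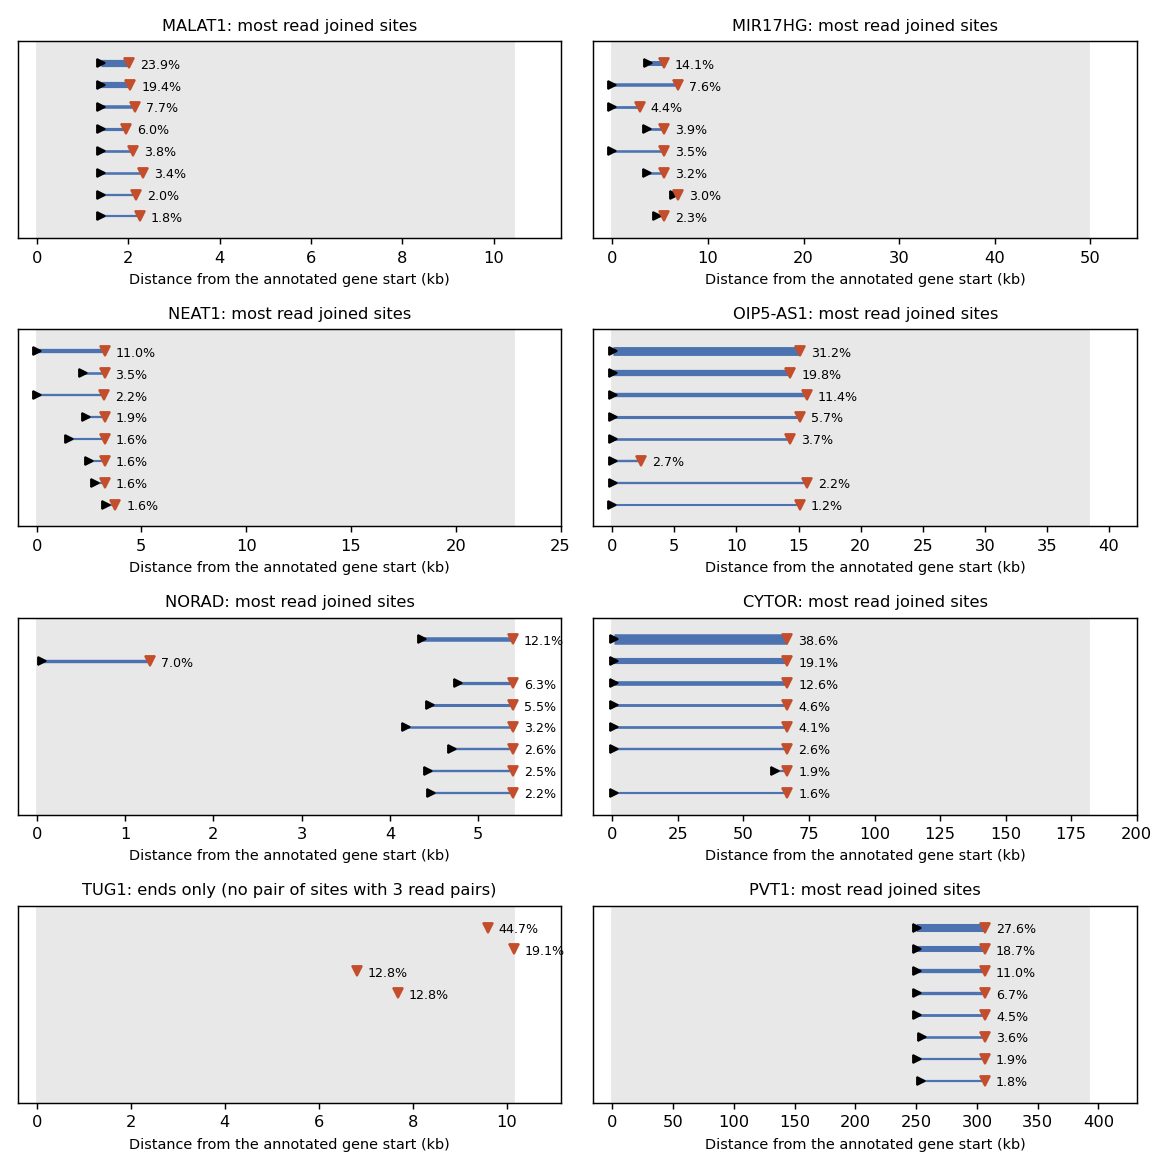
Up to 8 most read combinations of a start site (black triangle) and an end site (red triangle) for each gene, as distance in kb from the annotated gene start; grey marks the annotated body, line width and the number give the share of the gene's read pairs over all 4 libraries. MALAT1 pairs span a median of 640 bp from an internal start, PVT1 pairs lie between 250.8 and 306.7 kb, NORAD pairs cover either its first or its last kilobase, and for TUG1 only ends are drawn.

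MALAT1, 10.4 kb long, was read almost only as a short 5′ piece. The start 65499045, 1405 bp inside the annotated body and the start of an annotated transcript, held 81.8% of 8904 read pairs (1583 and 2166 in DMSO, 2715 and 818 after imatinib). Ends followed it closely. Of all pairs, 33.7% ended at 65499661 and 22.2% at 65499691, and the median distance between the ends of a pair was 640 bp. Only 1 pair ended within 1 kb of the annotated gene end, and 26 ended in the last 3 kb (7 and 11 in DMSO, 7 and 1 after imatinib). None of the 6 ends with over 3% of the pairs had a hexamer. A-rich ends made up 45.5% of the pairs, and with the limit set at 6 A instead of 7 they made up 86.9%, since 65499661 is followed by 6 A. In each library A-rich ends were 41.9% to 51.6% of MALAT1 pairs, against 7.82% to 9.80% of all read pairs. The annotation holds short MALAT1 models as well, and 97.1% of the pairs ended within 200 bp of the end of one of 66 annotated MALAT1 transcripts.

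Most NEAT1 pairs ended within 5 kb of the gene start in 3 of the 4 libraries. Of 317 read pairs, 89.3% ended within 5 kb of the gene start, where the short form ends, and 34 pairs ended further downstream. By library the share within 5 kb was 87.3% and 45.8% in DMSO and 94.6% and 92.3% after imatinib, so DMSO replicate 2, with 11 of 24 pairs, stood apart, and imatinib replicate 1 held 186 of the 317 pairs. All of those 34 also started more than 5 kb inside the gene, and 33 of them had A-rich ends, so no pair joined the first kilobase to an end beyond 5 kb. Of the 78 pairs that started in the first kilobase, all ended within 5 kb. The ends within 5 kb had 2 main groups. The end with the AATAAA hexamer, 65426525, lies 12 bp from an annotated end and held 18.0% of the pairs (10 and 7 in DMSO, 31 and 9 after imatinib). A pair of ends 11 bp apart and 509 bp further upstream, 65426016 and 65426005, held 65.3% and has no hexamer. All 42 pairs at 65426005 and 35 of 165 at 65426016 were A-rich, and 65426016 is followed by 6 A. Which form of NEAT1 these pairs came from was not tested. The capitals above show TAAAAAGGGA after 65426016.

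The upstream ends were absent from 1 library. They held 34 read pairs in DMSO replicate 1, 0 in DMSO replicate 2, 137 in imatinib replicate 1 and 36 in imatinib replicate 2. In CPM this was 9.82, 0, 30.3 and 16.0. A count of 0 among 24 NEAT1 read pairs of DMSO replicate 2 allows a share of up to 12.5% (3 read pairs, counting error only), below the 61.8% of the other DMSO library. The remaining NEAT1 pairs lay at 6.07 and 4.62 CPM in DMSO and at 10.8 and 7.11 CPM after imatinib, so the order of the groups held without these ends. The use of 65426016 relative to the other NEAT1 ends did not pass the test in edgeR diffSpliceDGE (log2 0.21 ± 0.83 (SE)). In limma's diffSplice its log2 value was 3.13 with an adjusted p of 0.704, so the size of this difference depended on the tool. Starts were spread, with 16.1% at 65422798, an annotated start 24 bp inside the body, and 74.8% of the pairs started more than 1 kb further in.

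**Figure D3:**
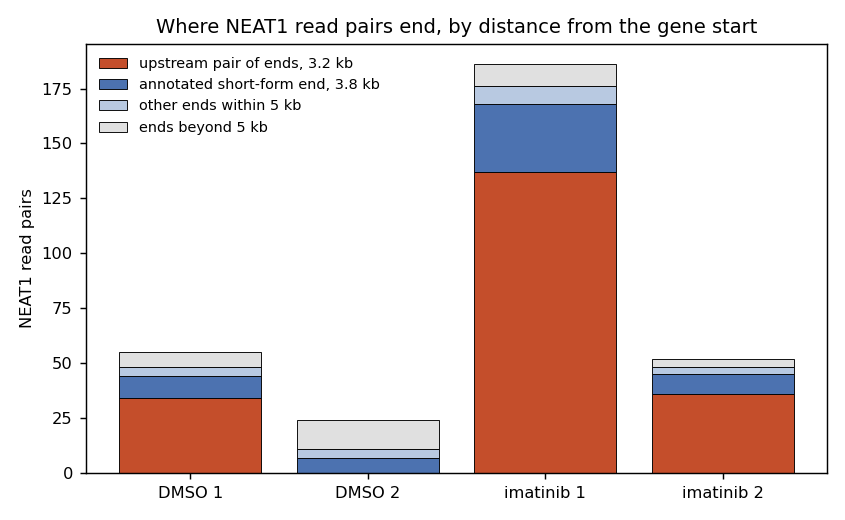
NEAT1 read pairs in each library, stacked by where they end: the pair of ends 3.2 kb from the gene start (red), the annotated short-form end at 3.8 kb (blue), other ends within 5 kb (light blue) and ends beyond 5 kb (grey). The red part holds 34, 0, 137 and 36 read pairs, and DMSO replicate 2 has none of it.

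PVT1, 392.6 kb long, was read almost as a single unit deep in the gene. Starts within 100 bp of 128045332 held 75.1% of 6305 read pairs, with 28.6% at 128045332, 19.5% at 128045285 and 11.3% at 128045316, all 250.8 kb inside the annotated body and each within 1 bp of an annotated start. A single end, 128101254, held 93.8% of the pairs in all (1574 and 1805 in DMSO, 1265 and 1273 after imatinib), with the ATTAAA hexamer 20 bases before it. It lies 85.8 kb before the annotated gene end, and no pair ended beyond this site. Joined, 128045332 and 128101254 span 55.9 kb of the genome and match 3 annotated transcripts of 5 exons, 803 to 830 nt long after splicing. The first kilobase of PVT1, the promoter next to MYC, gave 56 pairs, of which 34 also reached the main end. Their counts were 19 and 20 in DMSO and 8 and 9 after imatinib, which is 5.49 and 3.85 CPM against 1.77 and 4.00 CPM and overlaps. No sequence is printed for this gene.

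NORAD was recovered as its 2 outer parts. The end 36045626, 8 bp from the annotated gene end and with an AATAAA hexamer, held 77.2% of 854 read pairs (161 and 186 in DMSO, 220 and 92 after imatinib). Most of those read pairs had a late 5′ end, since 70.8% of all NORAD pairs started more than 4 kb inside this 5.40 kb single-exon gene. Whether these late 5′ ends were capped starts was not tested. The start near the gene start, 36050960, held 17.1%, and its most frequent partner was an end 1228 bp away at 36049733 (60 pairs). That end has no hexamer, and 6 of the 10 bases after it are A, so its pairs did not count as A-rich. Only 10 pairs spanned the RNA. The body holds 15 copies of TGTANATA on the sense strand, the motif that Pumilio proteins recognise, a number reached by 0.106% of 23532 windows of the same length on chromosome 20 (both strands). The median read pair spanned 1 copy, 218 pairs spanned none and the 10 full-span pairs spanned all 15.

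The late NORAD starts were scattered. The most read of them, 36046657, held 12.2% of the pairs and only 22.1% of its site was at its peak position, while the first-kilobase start 36050960 had 86.3% at its peak. Starts over 1 kb downstream of 36050960 held 77.0% and 68.0% of the pairs in DMSO and 88.9% and 80.9% after imatinib. The groups did not overlap, and 2 against 2 libraries cannot give a two-sided exact permutation p below 0.33, which is the value here. The relative use of the end 36049733 did not pass the test (log2 -0.90 ± 0.48 (SE), diffSpliceDGE).

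CYTOR, 182 kb in the annotation, ended at 1 place. The end 87521509 held 94.96% of 3396 read pairs, 115 kb before the annotated gene end and 1 bp from the end of an annotated transcript. Within 10 bp of it, 2400 pairs counted as A-rich and 825 did not, because neighbouring end positions of 1 site fall on either side of the limit of 7 A. A filter on internal priming therefore splits a site that has an ATTAAA hexamer 18 bases upstream. Its 5 most used starts lay within 129 bp, with 39.4% at 87455479, 19.5% at 87455429 and 12.7% at 87455497, all annotated starts, while 10.8% of the pairs started over 1 kb downstream of the most used start. The largest combination, 87455479 to 87521509, spans 66.0 kb and matches annotated transcripts of 3 and 4 exons.

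MIR17HG is the host of 6 microRNA hairpins within 787 bp of the genome. Its microRNAs are shown with the seed, bases 2 to 8, in capitals (RefSeq, GRCh38.p14), since they fall into 4 seed groups by these letters.
miR-17-5p: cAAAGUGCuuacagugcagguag
miR-20a-5p: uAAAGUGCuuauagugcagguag
miR-18a-5p: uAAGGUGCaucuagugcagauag
miR-19a-3p: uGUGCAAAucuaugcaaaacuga
miR-19b-3p: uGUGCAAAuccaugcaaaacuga
miR-92a-3p: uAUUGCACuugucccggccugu
Few MIR17HG read pairs spanned this region in the genome. Of 432 read pairs, 57 spanned all hairpins and 41 started and ended before the first one. Another 229 started after the last one and 104 started inside the region. Only 1 pair ended inside it. Paired ends do not show whether the hairpins between them were kept in the RNA. Of the spanning pairs, 33 joined 91347687 to 91354584, which matches an annotated transcript of 4 exons and 1025 nt over 6898 bp.

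Starts inside the region lay at 3 positions almost without exception. Of the 104 pairs, 65 started at the base right after miR-92a-3p, 15 at the base right after miR-19b-3p and 17 at the first base of miR-92a-1-5p, and 7 started elsewhere. The 3 windows below (hg38, 30 bases before the start and 19 after it) carry the first base of the molecule in capitals.
After miR-92a-3p (chr13:91351353-91351402, +): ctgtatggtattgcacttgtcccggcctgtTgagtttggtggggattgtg
After miR-19b-3p (chr13:91351238-91351287, +): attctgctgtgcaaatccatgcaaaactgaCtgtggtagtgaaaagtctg
At miR-92a-1-5p (chr13:91351294-91351343, +): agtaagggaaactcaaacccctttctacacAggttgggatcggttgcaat
The bases before the first 2 starts are the last bases of the microRNAs printed above. The start after miR-92a-3p had 24 and 24 pairs in DMSO and 11 and 6 after imatinib, and it is also the annotated start of a transcript in Gencode v44. The start after miR-19b-3p had 9 and 0 in DMSO and 4 and 2 after imatinib. No pair began at a mature microRNA of the other 4 hairpins or at the base after one.

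**Figure D4:**
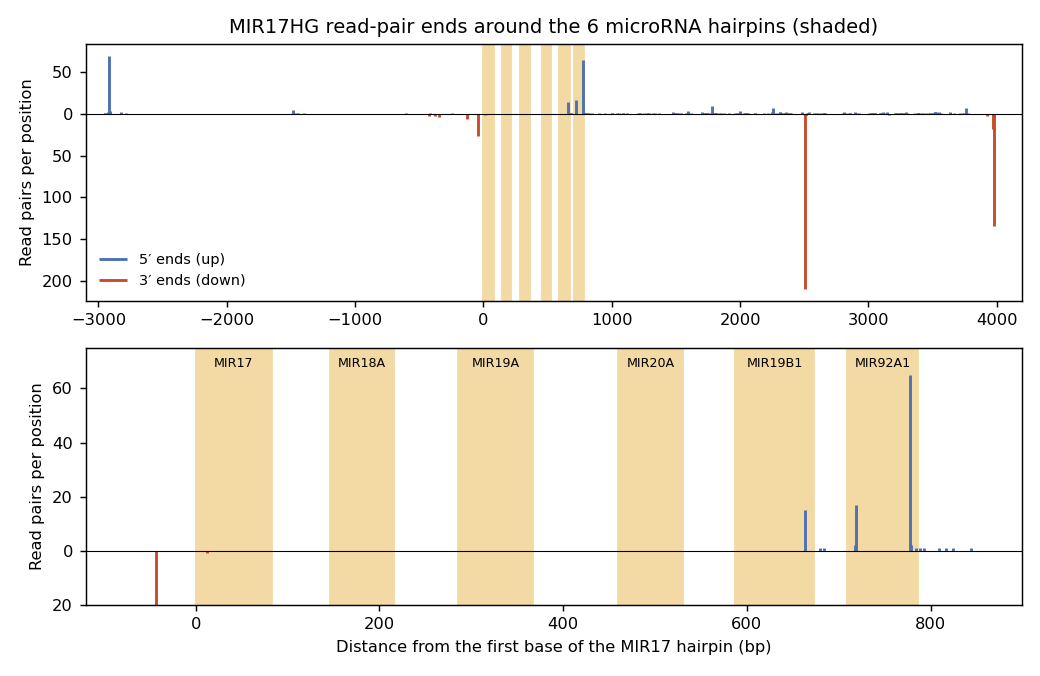
Read pairs of MIR17HG at each 5′ end (blue, up) and 3′ end (red, down) by distance in bp from the first base of the MIR17 hairpin, summed over 4 libraries, with the 6 hairpins shaded; the lower panel enlarges the hairpin region and cuts the 3′ end before MIR17 at 20. The tallest 5′ end inside the region, 65 read pairs, is in the MIR92A1 hairpin, and the hairpins of MIR17, MIR18A, MIR19A and MIR20A hold no tall 5′ end.

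Most MIR17HG pairs ended at 2 places after the hairpins. The end 91353109, 1718 bp after the last hairpin, held 50.2% of the pairs, and all 217 of these were A-rich, without a hexamer before the end. The end 91354584, 3193 bp after the last hairpin, held 37.7% and has AATAAA with 2 A downstream. Another end, 91350562, lies 43 bases before the MIR17 hairpin and held 6.0%, with 5 and 17 pairs in DMSO and 4 and 0 after imatinib, and all 26 of these were A-rich without a hexamer. A-rich ends were 54.1% to 68.6% of MIR17HG pairs per library. The gene start 91347687 held 19.2% of the pairs (28 and 39 in DMSO, 13 and 3 after imatinib). The TIF (transcript isoform, a start cluster joined to an end cluster) from it to 91354584 matches an annotated transcript of 4 exons. It had 11 and 13 pairs in DMSO and 1 and 2 after imatinib, with a log2 fold change of -2.37 ± 0.78 (SE) and an adjusted p of 0.081 (edgeR over 16020 TIFs).

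TUG1 was the least read member. Its 47 pairs started at 45 positions, none with more than 2 pairs, and 38 started more than 5 kb inside the gene. Ends were less scattered, with 21 pairs at 30978843 and 9 at 30979392, both with AATAAA and at annotated ends. OIP5-AS1 started at 41284008 (75.8%) and 41283990 (15.3%), both annotated. Its pairs ended mainly at 41299086 (39.3%), 41298308 (24.2%) and 41299626 (14.2%), 3 annotated ends within 1318 bp of each other. The shares of these ends in a library ran from 36.7% to 41.0% for the first, from 20.0% to 27.3% for the second and from 11.7% to 17.4% for the third, with no separation of the conditions. All lie at least 22766 bp before the annotated gene end, while an end at 41286291, 2333 bp from the gene start, held 3.6%.

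Transcript isoforms were then compared as TIFs, each a start cluster joined to a PAS cluster by at least 4 read pairs 300 bp to 2 Mb apart, without A-rich ends. The members had 58 TIFs, 29 of which were tested, and 0 passed an adjusted p of 0.05 in edgeR, where 11.1% of 16020 TIFs did. At an unadjusted p under 0.05 there were 3, against 28.5% of all TIFs, and DESeq2 called 0 of the members' and 6.81% of all TIFs. NEAT1 had 1 TIF, which was too little read to be tested, and TUG1 had none. The 3 largest of PVT1, from 128045332, 128045285 and 128045357 to 128101254, had log2 fold changes of 0.50, 0.12 and 0.22. The 3 largest of OIP5-AS1, from 41284008 to 41299086, 41298308 and 41299626, had 0.35, 0.38 and 0.60. In MALAT1 those from 65499045 to 65499661, 65499961 and 65499777 had 0.41, 0.34 and 0.69, and the 2 tested of CYTOR had -0.37 and 0.11. The smallest adjusted p was 0.0646, for the PVT1 TIF from 128048436, with 28 and 31 read pairs in DMSO and 5 and 6 after imatinib. Next came an OIP5-AS1 TIF with an early end at 41289151, with 3 and 4 pairs in DMSO and 13 and 7 after imatinib (log2 2.00 ± 0.62 (SE), adjusted p = 0.0655).

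The choice of start and end inside a gene was tested apart from its level, each cluster against the other clusters of the gene (diffSpliceDGE, edgeR). Of 26 tested PAS clusters of the members 0 were called, where 0.115% of all 11342 were called. At an unadjusted p under 0.05 there were also 0, against 5.02% of all, and limma's diffSplice called 0 of the members' and 0.132% of all. Of 19 tested TSS clusters 2 were called, where 3.53% of all 11788 were called, and limma called 1 of them and 4.22% of all. Both were single-position internal starts, in CYTOR and in PVT1. Each passed the low-count filter through the condition in which it is high, so its p is no independent support.

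The CYTOR start was seen only in imatinib libraries. The cluster 87516746, 61965 bp inside the gene and 1 bp from an annotated start, held 0 and 0 read pairs in DMSO and 51 and 8 after imatinib. This was 4.15% (95% Wilson interval 3.18 to 5.42) and 2.45% (1.24 to 4.75) of the CYTOR pairs of the imatinib libraries. The counts of 0 allow up to 0.446% and 0.257% in the DMSO libraries (3 read pairs each, counting error only). Taken as CPM over each group, its level after imatinib was 25.2 times a floor of 3 read pairs over the DMSO group. In imatinib replicate 2 alone it was 10.3 times that floor. Neither value takes in the counting error of the imatinib libraries, so they are not lower limits. The adjusted p for its relative use was 0.000813 (diffSpliceDGE, fitted log2 change 7.95, a value that depends on the prior count) and 0.00112 with limma. It was 0.0662 without DMSO replicate 1 (fitted log2 8.06) and 0.149 without DMSO replicate 2 (7.63), and without imatinib replicate 1, which held 51 of the 59 read pairs, it could not be tested. Of the 76 read pairs that started within 10 bp of it, 63 ended at the main CYTOR end, 4763 bp downstream. Starts over 1 kb downstream of the most used CYTOR start, as a class, held 4.61% and 5.48% of the pairs in DMSO and 18.0% and 15.6% after imatinib, without overlap, and the exact permutation p was 0.33, the smallest possible.

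The 201 bases around this start are shown because the start held no read pair in either DMSO library (chr2:87516596-87516796, +, hg38), with the first transcribed base and 1 motif in capitals.
CYTOR 87516746: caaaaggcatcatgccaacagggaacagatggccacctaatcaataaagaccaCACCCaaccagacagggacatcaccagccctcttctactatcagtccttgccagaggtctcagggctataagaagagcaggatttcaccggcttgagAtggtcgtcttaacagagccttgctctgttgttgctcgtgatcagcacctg
The printed strand was searched for TATAAA. Both strands were searched for AGATAA, which GATA factors bind. They were also searched for CACCC, which KLF factors bind. The window held 1 CACCC, 97 bases before the start, and none of the others. Only these exact strings were searched for, so variants such as TATAAG, which the window holds, were not counted. Over 15953 start clusters, windows of this length held TATAAA in 3.00%, AGATAA in 5.18% and CACCC in 47.0%.

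The PVT1 start moved the other way. The cluster 128048436, 253.9 kb inside the gene and 186 bp from the nearest annotated start, held 29 and 32 read pairs in DMSO and 5 and 6 after imatinib. As shares these were 1.72% and 1.66% against 0.365% and 0.455%. The log2 change relative to the other PVT1 starts was -2.20 ± 0.61 (SE) with an adjusted p of 0.0472 (diffSpliceDGE), and 0.104 with limma. It lost the call without any 1 of the 4 libraries, with adjusted p from 0.0575 to 0.49, while the log2 change stayed between -2.30 and -1.97. The call was also lost with a replicate block (adjusted p = 0.244, log2 -2.15) and without the low-count filter (0.0702).

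**Figure D5:**
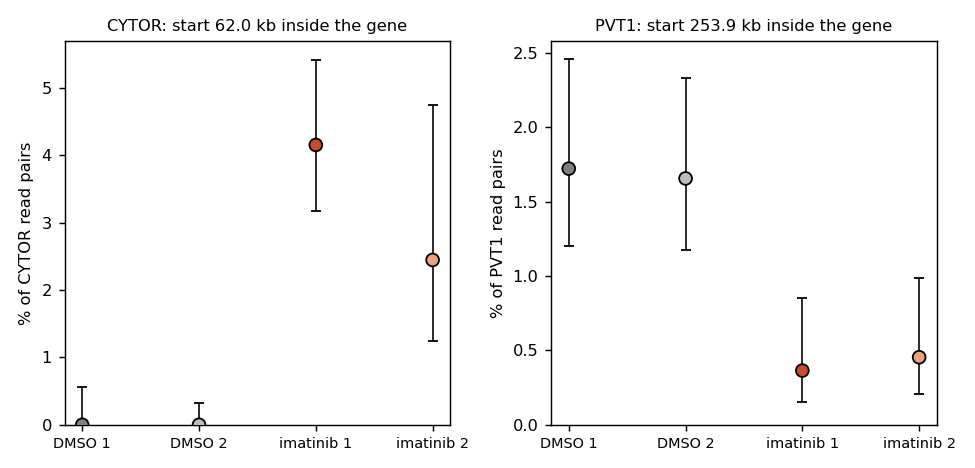
Share of the gene's read pairs at the 2 called start clusters in each library, with 95% Wilson intervals (counting error only); the axes start at 0 and differ between panels. The CYTOR start is at 0 in both DMSO libraries and at 4.15% and 2.45% after imatinib, and the PVT1 start lies at 1.72% and 1.66% in DMSO and at 0.365% and 0.455% after imatinib.

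Genes that work with these RNAs were mostly on the uncalled side. Of 10 paraspeckle protein genes, 8 nuclear speckle protein genes, 8 cleavage factor genes and 6 genes of RNA-binding partners, all tested, 0 were called by edgeR in each list, where 14.8% of all tested genes were. Their median log2 fold changes were -0.07, -0.34, -0.14 and -0.15. Among paraspeckle proteins NONO had a log2 fold change of 0.73 (adjusted p = 0.164, edgeR), and HNRNPK and HNRNPM had -0.12 and -0.36. SFPQ of the same list, named here outside the naming rule, went the other way from NONO, with -0.75 (adjusted p = 0.0967, edgeR). Among speckle proteins SRSF3, SRSF2 and SON had -0.52, -0.38 and 0.10. Among cleavage factors CPSF6, FIP1L1 and CSTF2 had -0.18, -0.41 and -0.73. ELAVL1, an RNA stabiliser, had -0.91 (adjusted p = 0.058 in edgeR) and was called by DESeq2 (adjusted p = 0.0431), and RBMX and KHDRBS1 had -0.14 and 0.22.

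Neighbours and regulators gave 1 call. Of 10 genes beside the members 8 were tested and 0 called, and MYC, upstream of PVT1, had a log2 fold change of -0.77 ± 0.31 (SE) with an adjusted p of 0.123 (edgeR), with CPNE1 at 0.45 and OIP5 at 0.08. Of 8 regulators and processing factors of MIR17HG, E2F2, a transcription factor, was called higher (log2 1.05 ± 0.30 (SE), adjusted p = 0.0483 in edgeR and 0.106 in DESeq2) and 0 were called lower, where 8.69% of all genes were called higher and 6.15% lower. DROSHA, DGCR8 and DICER1, which process the microRNAs and are named here for that role outside the naming rule, had -0.03, 0.48 and -0.15. Of 18 other widely studied lncRNAs 11 were tested, and DANCR was called lower (log2 -0.91 ± 0.26 (SE), adjusted p = 0.049).

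By the pattern over the 4 libraries (Euclidean distance of gene-centred log2 CPM), the closest other lncRNA gene was NFE2L1-DT for NEAT1 (distance 0.18), WAKMAR2 for MIR17HG (0.06), MCPH1-DT for MALAT1 (0.14) and ENSG00000236266 for PVT1 (0.13). It was CTBP1-DT for NORAD (0.12), GATD1-DT for TUG1 (0.09) and JTB-DT for OIP5-AS1 (0.07). The closest to CYTOR, NCAL1 (0.02), shares its read pairs. A pattern over 4 libraries is loose, and nothing about function follows from such a distance.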

How the data were processed

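TIF-Seq2 tables of 4 libraries (2 DMSO, 2 imatinib) were used, grouped by the sample labels. The deposited values are raw counts of read pairs per pair of end positions. The authors made them by trimming with cutadapt 1.16, UMI extraction, STAR 2.5.3a alignment to hg38, keeping uniquely mapped pairs and removing UMI duplicates. Here read pairs were counted per Gencode v44 gene, and TSS clusters, PAS clusters and TIFs were rebuilt after the study's description (tags within 10 bp joined). Its power-law settings are not given in the sources used here, so a slope of 1.25 and a total of 1000000 were chosen, and the resulting 15953 TSS clusters, 30461 PAS clusters and 34441 TIFs are not the study's own sets. The tests were edgeR 4.0.16 (glmQLFit, TMM, filterByExpr; diffSpliceDGE for clusters) on all features with Benjamini-Hochberg adjustment, with DESeq2 1.42.0 and limma 3.58.1 as alternatives. Shares carry 95% Wilson intervals. Tested on simulated data with 200 features changed by 2 on the log2 scale, the gene test (12135 genes) recovered 72%, the TIF test (16020 TIFs) 49.5%, and the end tests 13.5% (17054 PAS clusters) and 18% (14904 TSS clusters). Of the calls in the simulated TSS test, 11.5% were false. The simulation gave every feature the same dispersion, so these rates need not hold for the real libraries. Clusters with 10% of a gene's pairs, the 3 largest TIFs and called features are named, and from each gene list the called genes, or the most counted ones. Members and lists were chosen with earlier results of these data known. The 3′T-fill libraries were not analysed here, and the deposited long-read models hold none at these genes and were not used. Whether the replicates were separate cultures is known only from their description as biological replicates. An end sequence of MIR17HG and a marker gene are not reported here.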

Additional observations from a re-analysis of the deposited data

How the results depend on the processing

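Counts of calls moved with several settings. The gene test called 1800 of 12135 genes and 0 of 8 members. With a log2 fold change beyond 1.5 as well, 1180 genes and 0 members passed. Without the low-count filter 2736 of 22384 genes and 2 members passed. DESeq2 called 1 member and 1426 of 13270 genes. Keeping only pairs 300 bp to 2 Mb apart called 1 member and 1781 of 11960 genes. Leaving out 1 library at a time gave 820 (without DMSO replicate 2) to 3955 called genes (without imatinib replicate 2), with 1100 without DMSO replicate 1, and 0 to 2 members, with the lone library of a condition assumed to vary like the other group. Of 1779 called TIFs, the test without the low-count filter gave 3100 and 3 of the members, and leaving out 1 library gave 705 to 3592 and 0 to 3 of the members. The 13 called PAS clusters became 0 to 97 without 1 library, and 416 called TSS clusters became 29 to 368, with 0 to 1 of the members. With limma or without the low-count filter 1 TSS cluster of the members was called, the one in CYTOR. Without imatinib replicate 1 that cluster could not be tested, and the 1 called was another CYTOR start, 87469950.

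The replicate numbers do not pair the libraries by any label, and deviations of same-numbered libraries correlated at -0.236. With the replicate number as a block, 1148 genes, 1106 TIFs, 0 PAS clusters and 146 TSS clusters were called, among them 1 member (NEAT1) and 1 TSS cluster of the members, the one in CYTOR. A crossed pairing, chosen after seeing the data, called 3723 of 12135 genes and 2 of the 8 members.

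Signs turned for differences near 0. PVT1 was at -0.0019 with DESeq2, -0.031 without the low-count filter, -0.010 with the block, -0.011 with the crossed one and -0.53 to 0.47 without 1 library. CYTOR was at 0.025 with no slack, 0.0022 with pairs 300 bp to 2 Mb apart and -0.51 to 0.35 without 1 library, and MALAT1 at -0.32 to 0.59.

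Shares of ends are means over the 4 libraries. A start or end counts as annotated within 200 bp of a transcript end of the gene, a start as internal over 1 kb downstream of the most used one, and an end as early over 1 kb before the gene end. Leaving out A-rich pairs moved MALAT1 internal starts from 1.78% to 2.35% and annotated ends from 97.3% to 99.1%. NEAT1 annotated ends went from 22.4% to 36.6%. PVT1 annotated starts went from 95.8% to 97.6% and annotated ends from 96.3% to 99.4%, while CYTOR annotated ends went from 95.7% to 91.2%. In MIR17HG internal starts went from 82.4% to 74.8%, early ends from 99.3% to 97.7%, annotated starts from 59.6% to 32.0% and annotated ends from 97.0% to 92.8%. Limits of 100 bp and 500 bp gave 3.87% internal starts, 89.8% annotated starts and 86.4% annotated ends in MALAT1, 93.3% annotated starts in PVT1 and 52.6% in MIR17HG, 78.2% early ends in TUG1 (33.0% before) and 97.6% annotated ends in OIP5-AS1. The other 214 values of shares moved by less than 1 SD over the libraries. Depth limits NEAT1, MIR17HG and TUG1 most. The cause of these changes was not tested.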
